A study of Homo sapiens with 12 samples.

Results

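The 10 genes described here encode the subunits of the MuvB, B-Myb and DREAM complexes: MYBL2, LIN9, LIN37, LIN52, LIN54, RBBP4, E2F4, TFDP1, RBL1 and RBL2. They were found by symbol in the authors' comparison tables and read by gene ID from the table of normalized counts, 10 of its 14862 genes, and all 10 passed the filter on low values (14857 genes did). Normalized counts are read counts per gene that the authors brought to a common library size. PolyA RNA was sequenced from hTERT-RPE1, a telomerase-immortalized human retinal pigment epithelial line, from parental cells in every group. The labels give the genotype as WT for siNeg and as Double KD, FOXM1 KD and CENP-F KD for the knockdowns. The 4 groups of 3 libraries each were cells given siRNAs against CENPF and FOXM1 together (siCENPF+siFOXM1), an siRNA against FOXM1 (siFOXM1), an siRNA against CENPF (siCENPF) or a negative-control siRNA (siNeg), at 20 nM, and collected after 48 hours. The labels leave unsaid whether 20 nM was the dose of each siRNA or of both in the double group. Nothing in the labels says that the libraries of a group came from separate cultures, so p-values measure only the spread between these libraries, which may be technical. In such bulk RNA, fewer cells in a cell cycle phase and less RNA per cell cannot be told apart.

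MuvB is a core of LIN9, LIN37, LIN52, LIN54 and RBBP4 that sits at cell cycle promoters and changes partners as cells cycle. With E2F4, its dimer partner DP1 (TFDP1) and a pocket protein, p107 (RBL1) or p130 (RBL2), it forms DREAM, which represses cell cycle genes in quiescence and early G1. With B-Myb (MYBL2) in place of these it forms the MMB complex, which recruits FOXM1 to promoters carrying a CHR (cell cycle genes homology region) and activates G2 and M phase genes. FOXM1 is therefore a partner of these subunits, and the comparisons below ask whether their own transcripts differed when FOXM1, CENPF or both were depleted.

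The subunit genes carry some of the motifs that their complexes bind. Promoter windows of 300 bases (250 before to 50 after an annotated start, RefSeq, GRCh38.p14) were found for all 10 genes, 16 windows in all. The CHR letters TTTGAA, searched on both strands, stood in windows of 4 of the genes (LIN9, LIN37, LIN54 and RBL2), 5 of the 16 windows, against 15.2% of all 35116 windows. One of 4 E2F words (TTTGGCGC, TTTCGCGC, TTTCCCGC or TTTGCCGC, both strands) stood in windows of 3 genes (LIN52, TFDP1 and RBL1), 3 of the 16 windows, against 3.31% of all windows. A shorter word, GGCGGGA, stood in windows of 8 genes, 10 of the 16, against 15.4% of all windows, and it overlapped the E2F word in LIN52. Windows of the same gene can overlap, so the CHR site of LIN54 counts more than once, as do the GGCGGGA sites of LIN54 and RBBP4. The following stretches of 30 bases show those matches that bear on the genes described below, 5′ to 3′ on the strand of the gene, with the matched words in capitals.
MYBL2, GGCGGGA, chr20:43667064-43667093, plus strand: ccgacgcgcttGGCGGGAgatagaaaagtg
RBL1, 2 E2F words in tandem, chr20:37095995-37096024, minus strand: tTTTCGCGCgcTTTGGCGCaggtggttgtg
TFDP1, E2F word on the opposite strand, chr13:113584622-113584651, plus strand: gggcgccgaagGCGCGAAAaggcgcgcagg
LIN52, E2F word, chr14:74084920-74084949, plus strand: tggaacctcgtTTTCCCGCcgacggttggc
LIN54, CHR letters, chr4:83010906-83010935, minus strand: ggcccttgtgcgTTTGAAggttggcggggc
LIN9, CHR letters, chr1:226309150-226309179, minus strand: cggcgggcagccTTTGAAaaagcggcgcgg
RBL2, CHR letters, chr16:53434483-53434512, plus strand: ggcgcttcgccgTTTGAAtggctgcgggcc
E2F4 had none of these words in its windows, which says only that the letters are not there. A match is a description of the sequence, and binding was not measured in these libraries.

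Reads counted in genes numbered 13671250 to 35411230 per library. CENPF fell to 0.159 of its siNeg level with siCENPF+siFOXM1 (1360, 1360 and 1284 normalized counts) and to 0.108 with siCENPF (893, 827 and 1017), against 7797, 9537 and 7993 with siNeg. FOXM1 fell to 0.177 of its siNeg level with siCENPF+siFOXM1 (729, 816 and 822 normalized counts) and to 0.149 with siFOXM1 (732, 491 and 816), against 4186, 4438 and 4763 with siNeg. Of 10 markers of differentiated retinal pigment epithelium 2 (BEST1 and MITF) reached 1 FPKM, while RPE65 and TYR stood at 0 in every library. Of 8 blood and endothelial markers 0 reached 1 FPKM, their sum staying at or under 0.691 FPKM. Of 6 keratin, cadherin and EPCAM genes 3 reached 1 FPKM, the keratins KRT8 and KRT18 and the N-cadherin gene CDH2. KRT19, CDH1 and EPCAM stayed at or under 0.038 FPKM in every library. Of 5 neural markers 1 (TUBB3) reached 1 FPKM.

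All 10 subunit genes were transcribed in every group, over a wide range of levels. For 9 of the 10 genes the length behind the authors' FPKM equals the exon lengths of all transcripts added together. For RBL2 it was 19089 bases, against 15192 added over the annotated transcripts. Levels are therefore compared here as reads per kilobase of merged exons, scaled to equal numbers of reads in genes. In siNeg libraries TFDP1 stood highest on this scale, at 61.0 ± 6.64 (SD, n = 3), followed by MYBL2 at 31.5 ± 6.05, RBBP4 between 19.8 and 24.3 and E2F4 at 14.01 ± 0.241. The ranges of these 4 genes over the siNeg libraries did not overlap their neighbours in the order. RBL1 (8.58 ± 1.05), RBL2 (6.15 ± 2.20), LIN54 (4.10 ± 0.601) and LIN9 (4.00 ± 0.614) each overlapped the next gene in the order, down to LIN52 (3.46 ± 0.249). LIN37 stood lowest, at 1.12 ± 0.156, and rested on 32 to 108 reads per library. On the authors' FPKM the order of the top 3 genes was the same, but RBL1 (4.97 FPKM) stood above E2F4 (4.04 FPKM) and LIN54 (0.898 FPKM) below LIN9 (1.45 FPKM).

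**Figure D1:**
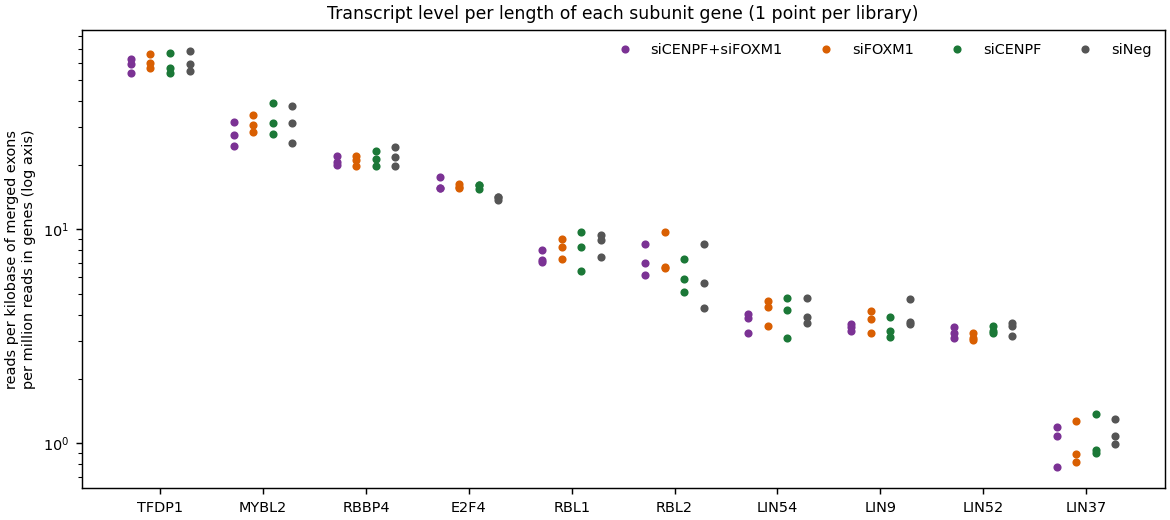
Level of each subunit gene per length, as reads per kilobase of merged exons, scaled to equal library totals, on a log axis, with 1 point per library in 4 groups. TFDP1 stands highest (53.7 to 68.3 over all 12 libraries) and LIN37 lowest (0.774 to 1.38).

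None of the 10 genes passed the test in any comparison when the 4 groups were compared by their means. The count was 0 of 10 with siCENPF+siFOXM1 against siNeg, where 0.458% of all genes tested passed, 0 of 10 with siFOXM1 (0.66%) and 0 of 10 with siCENPF (0.337%), at an adjusted p under 0.05 in limma with Benjamini-Hochberg adjustment over 14857 genes. At an unadjusted p under 0.05 limma named 1 of 10 in each of these 3 comparisons, E2F4 each time, against 7.36%, 7.77% and 5.53% of all genes. edgeR's quasi-likelihood test and DESeq2 on the recovered reads also called 0 of 10 in each. The median log2 fold change of the 10 genes was -0.10 with siCENPF+siFOXM1, -0.03 with siFOXM1 and -0.01 with siCENPF, beside a median of 0.00 over all genes each time.

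Within replicate numbers the subunit genes lay on both sides of siNeg. With siCENPF+siFOXM1 2 of 10 were higher than siNeg in 3 of 3 numbers (E2F4 and RBL2) and 4 lower (MYBL2, LIN9, LIN54 and RBL1), against 20.2% and 21.3% of all genes. With siFOXM1 2 were higher (E2F4 and RBL2) and 2 lower (LIN52 and RBL1), against 21.6% and 22% of all genes. With siCENPF 2 were higher (MYBL2 and E2F4) and 2 lower (LIN9 and TFDP1), against 17.5% and 17.6%. Libraries lower than siNeg without overlap were found for 0 of 10 with siCENPF+siFOXM1 and 0 of 10 with siCENPF, against 6.58% and 4.44% of all genes.

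Libraries with the same replicate number deviated together, and comparing within a number made the intervals of several members narrower. With the number as a block in limma, 2 of 10 genes passed with siCENPF+siFOXM1 against siNeg (E2F4 and RBL2, both higher), where 7.9% of all genes passed (4.18% higher). With siFOXM1 1 of 10 passed (RBL2, higher), against 8.72% of all genes (4.48% higher), and with siCENPF 0 of 10, against 4.52% (2.86% higher), with E2F4 at an adjusted p of 0.0586. The counts of 1 and 0 are near the shares over all genes, and a count of 2 among 10 genes is too small to set apart from its share. The 3 comparisons share the same siNeg libraries.

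**Figure D2:**
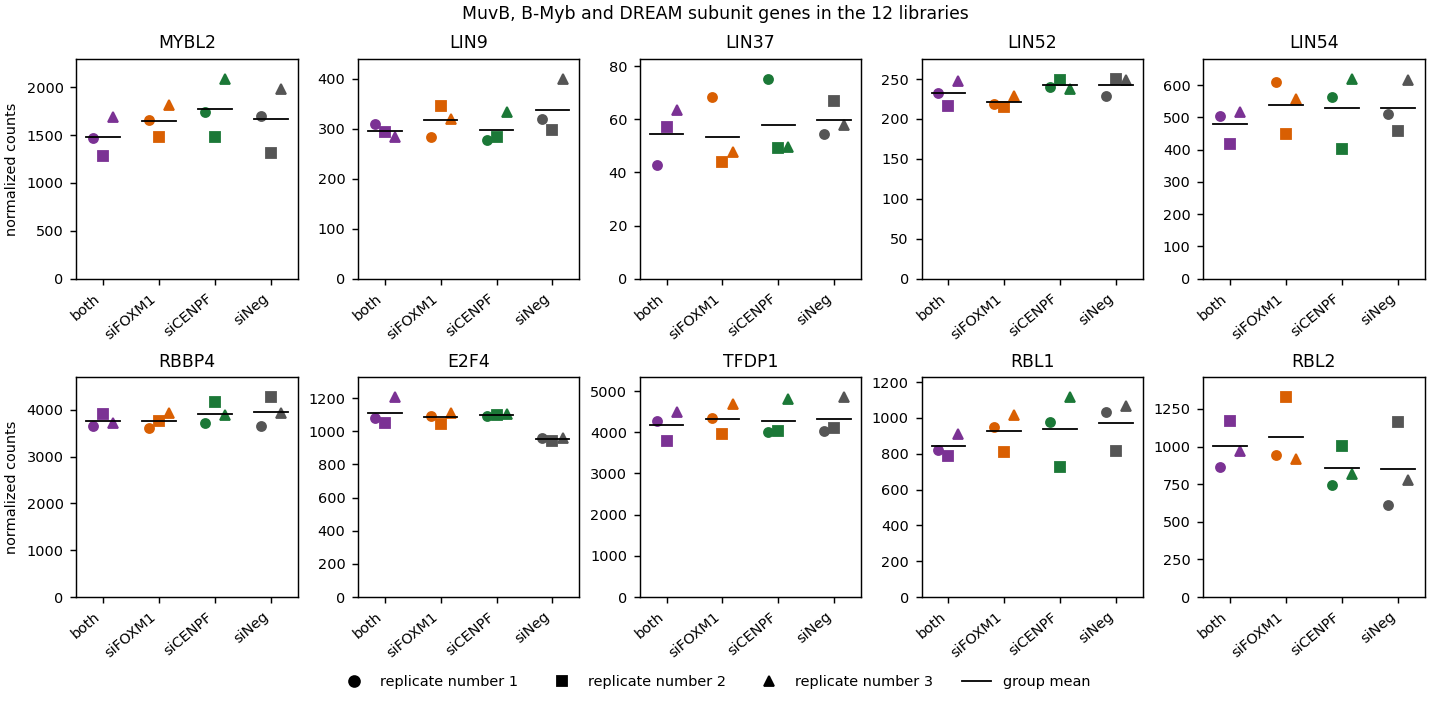
Normalized counts of each subunit gene (y axis from 0) in the 12 libraries, by group, with the group mean as a line and the replicate number as the marker shape; both stands for siCENPF+siFOXM1. E2F4 lies above its 3 siNeg libraries in all 9 knockdown libraries, and RBL2 is highest in replicate number 2 in every group.

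**Figure D3:**
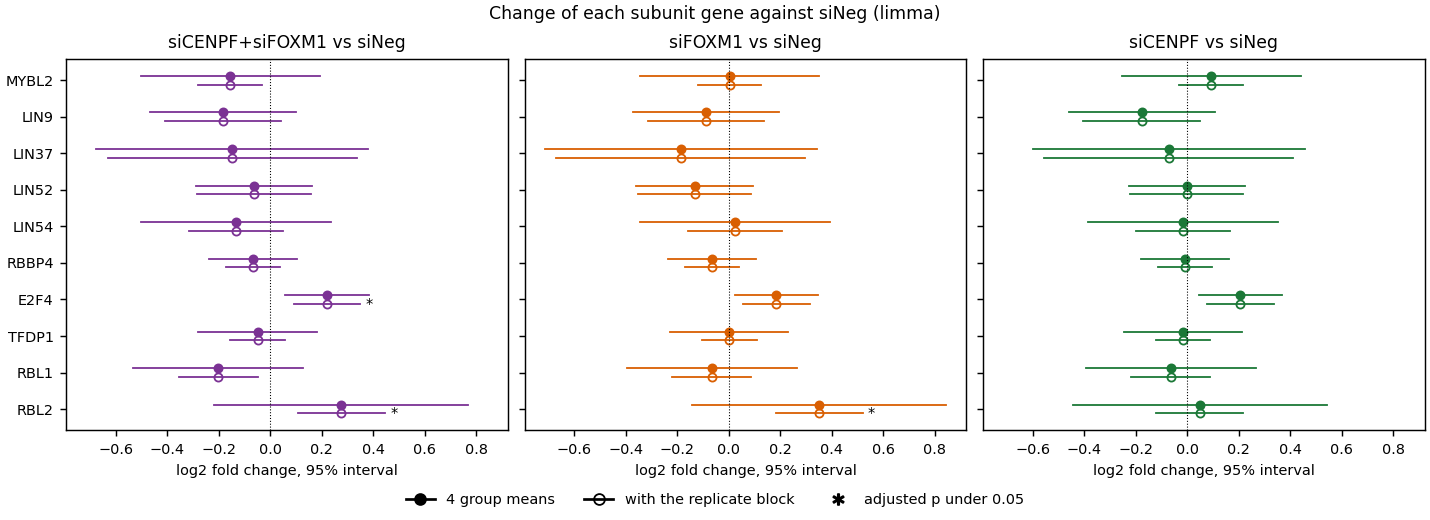
Log2 fold change of each subunit gene against siNeg with its 95% interval in limma, from the 4 group means (filled) and with the replicate number as a block (open). A star marks an adjusted p under 0.05, which E2F4 (0.22) and RBL2 (0.28 and 0.35) reach with the block.

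MYBL2 encodes B-Myb, the activating partner of MuvB and itself an E2F-regulated gene (chr20:43667019-43716496, plus strand, hg38 as for all positions of genes here). It had 1473, 1286 and 1686 normalized counts in siCENPF+siFOXM1 libraries 1 to 3, 1655, 1482 and 1814 in siFOXM1, 1737, 1480 and 2085 in siCENPF, and 1695, 1314 and 1983 in siNeg. All groups overlapped, and number 2 was the lowest in each. With siFOXM1 the log2 fold change against siNeg was 0.00 (95% interval -0.34 to 0.35). It was 0.09 (-0.26 to 0.44) with siCENPF and -0.16 (-0.50 to 0.19) with siCENPF+siFOXM1.

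MYBL2 fell in the double knockdown relative to siCENPF when libraries were compared within numbers. Against siCENPF, siCENPF+siFOXM1 libraries were lower in 3 of 3 numbers, by log2 -0.24, -0.20 and -0.31. Both fits gave log2 -0.25, with an SE of 0.16 and a limma adjusted p of 1.00 from the group means, and an SE of 0.06 and a limma adjusted p of 0.0283 with the replicate block. With the block 1 of 10 genes thus passed in this comparison, against 1.46% of all genes (0.431% higher and 1.03% lower); from the group means limma called 0 of 10, against 0.0808%, as did edgeR and DESeq2, and 0 of 10 had an unadjusted p under 0.05. The blocked call ended without siCENPF 1 or 3 (adjusted p = 0.0702 and 0.148) and without siCENPF+siFOXM1 1, 2 or 3 (0.167, 0.0829 and 0.176), always in the same direction. Against siFOXM1, siCENPF+siFOXM1 was lower in 3 of 3 numbers too, by log2 -0.17, -0.20 and -0.11, but missed the threshold (limma adjusted p = 0.501 with the block).

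The MuvB core genes passed no test between siRNA groups, with or without the block. LIN9, the scaffold that B-Myb contacts (chr1:226231149-226309869, minus strand), had 309, 294 and 284 normalized counts with siCENPF+siFOXM1, 284, 346 and 321 with siFOXM1, 277, 285 and 333 with siCENPF, and 320, 297 and 400 with siNeg. Its highest library was siNeg 3, and all groups overlapped. Its log2 fold change was lowest with siCENPF+siFOXM1, at -0.18 (95% interval -0.47 to 0.10, limma adjusted p = 0.869).

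LIN52 links MuvB to the pocket proteins when phosphorylated, and to B-Myb otherwise (chr14:74084796-74201235, plus strand). It had 233, 217 and 247 normalized counts with siCENPF+siFOXM1, 219, 216 and 229 with siFOXM1, 240, 249 and 237 with siCENPF, and 229, 250 and 249 with siNeg. The 3 siFOXM1 libraries lay below the 3 siNeg libraries, by a margin of well under 1 count between the nearest ones (228.9 and 229.0), and 6.83% of all genes were lower without overlap in that comparison. The log2 fold change was -0.13 (-0.36 to 0.09, limma adjusted p = 0.871).

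LIN54 is the subunit that binds the CHR letters (chr4:82909973-83012926, minus strand). It had 504, 419 and 518 normalized counts with siCENPF+siFOXM1, 609, 449 and 556 with siFOXM1, 562, 403 and 619 with siCENPF, and 511, 459 and 616 with siNeg. Number 2 was the lowest in every group, and the groups overlapped. Against siNeg the log2 fold change was -0.13 (-0.50 to 0.24) with siCENPF+siFOXM1, 0.02 with siFOXM1 and -0.01 with siCENPF.

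RBBP4, a histone-binding protein that also serves other chromatin complexes (chr1:32651142-32686211, plus strand), ranged from 3620 to 4266 normalized counts over the 12 libraries. Its intervals were among the narrowest, and the log2 fold changes against siNeg were -0.07 (-0.24 to 0.11) with siCENPF+siFOXM1, -0.06 (-0.24 to 0.11) with siFOXM1 and -0.01 (-0.18 to 0.16) with siCENPF. The annotation holds 6 RBBP4 pseudogenes, and 1706 of its 9470 exon bases lie opposite SYNC, so its counts are less certain than the interval shows.

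LIN37, a subunit needed for repression by DREAM (chr19:35748361-35754519, plus strand), had the fewest reads of the 10. It ranged from 42.8 to 63.5 normalized counts with siCENPF+siFOXM1, 43.9 to 68.4 with siFOXM1, 49.0 to 75.2 with siCENPF and 54.6 to 66.9 with siNeg. Its log2 fold change with siFOXM1 was -0.19, with a 95% interval of -0.71 to 0.34. Its exons share 752 of 2820 bases with a neighbouring gene on the same strand and 1180 with an antisense gene, and whether reads were counted by strand is not stated.

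E2F4 encodes the repressive E2F of DREAM (chr16:67192169-67198918, plus strand), and its siNeg libraries lay apart from the knockdown libraries, which overlapped one another. It had 1081, 1052 and 1204 normalized counts with siCENPF+siFOXM1, 1095, 1044 and 1113 with siFOXM1, 1094, 1100 and 1107 with siCENPF, and 959, 940 and 961 with siNeg. All 9 knockdown libraries lay above all 3 siNeg libraries, which 1.68% of all genes did. As a count for each comparison this is 1 of 10 members higher without overlap, against 6.35% of all genes with siCENPF+siFOXM1, 6.56% with siFOXM1 and 4.87% with siCENPF. A count of 1 of 10 is near these shares.

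The difference in E2F4 was small, 1.16-fold with siCENPF+siFOXM1 (log2 0.22, SE 0.07, limma adjusted p = 0.427), 1.14-fold with siFOXM1 (log2 0.18, SE 0.07, limma adjusted p = 0.548) and 1.15-fold with siCENPF (log2 0.21, SE 0.07, limma adjusted p = 0.656). With the replicate block the limma adjusted p was 0.0281 with siCENPF+siFOXM1, 0.0676 with siFOXM1 and 0.0586 with siCENPF. The blocked call in the double knockdown ended without siNeg 1 or 3 (adjusted p = 0.0817 and 0.125) and without siCENPF+siFOXM1 1, 2 or 3 (0.0586, 0.0558 and 0.215), with log2 fold changes between 0.17 and 0.25. The siNeg libraries, at 953 ± 11.8 normalized counts (SD, n = 3), serve all 3 comparisons. Between knockdowns E2F4 hardly differed, by log2 0.04 between siCENPF+siFOXM1 and siFOXM1 (95% interval -0.13 to 0.20) and by 0.01 between siCENPF+siFOXM1 and siCENPF (-0.15 to 0.18).

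TFDP1 encodes DP1, which dimerizes with E2F4 and other E2Fs (chr13:113584721-113641470, plus strand). It had 4273, 3780 and 4482 normalized counts with siCENPF+siFOXM1, 4343, 3961 and 4685 with siFOXM1, 4007, 4037 and 4800 with siCENPF, and 4031, 4110 and 4845 with siNeg. Number 3 was the highest in every group. The log2 fold changes against siNeg were -0.05 (-0.28 to 0.18) with siCENPF+siFOXM1, 0.00 (-0.23 to 0.23) with siFOXM1 and -0.02 (-0.25 to 0.21) with siCENPF.

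RBL2 encodes p130, the pocket protein that dominates DREAM in quiescent cells (chr16:53433977-53491649, plus strand). It had 862, 1171 and 970 normalized counts in siCENPF+siFOXM1 libraries 1 to 3, 945, 1327 and 915 in siFOXM1, 742, 1007 and 818 in siCENPF, and 611, 1162 and 777 in siNeg. Number 2 was the highest in every group, so the groups overlapped, but within each number the siCENPF+siFOXM1 and siFOXM1 libraries lay above siNeg. The 3 differences were log2 0.50, 0.01 and 0.32 with siCENPF+siFOXM1 and 0.63, 0.19 and 0.23 with siFOXM1.

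RBL2 was 1.28-fold higher with siFOXM1 (log2 0.35), with a limma adjusted p of 0.815 from the group means (SE 0.23) and of 0.00625 with the replicate block (SE 0.08). With siCENPF+siFOXM1 it was 1.21-fold higher (log2 0.28), with limma adjusted p of 0.902 and, with the block, 0.0370. With siCENPF the log2 fold change was 0.05 (95% interval -0.12 to 0.22 with the block, limma adjusted p = 0.834), and siCENPF+siFOXM1 lay above siCENPF in 3 of 3 numbers, by log2 0.22, 0.22 and 0.25 (limma adjusted p = 0.218 with the block). The blocked call with siFOXM1 ended without siNeg 1 (adjusted p = 0.126, log2 0.23), siFOXM1 1 (0.0733) or siFOXM1 2 (0.0513). That with siCENPF+siFOXM1 ended without siNeg 1 (adjusted p = 0.346, log2 0.15), siNeg 3 (0.0892), siFOXM1 2 (0.0559) or siCENPF+siFOXM1 1 or 3 (0.165 and 0.190). Of its 7320 exon bases 610 lie opposite AKTIP and 721 opposite another gene, and reads from these cannot be told apart without strand.

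RBL1 encodes p107, the pocket protein of cycling cells and an E2F target with the tandem E2F words shown above (chr20:36996349-37095995, minus strand). It had 823, 788 and 911 normalized counts with siCENPF+siFOXM1, 951, 810 and 1018 with siFOXM1, 977, 725 and 1114 with siCENPF, and 1035, 818 and 1064 with siNeg. The double knockdown lay below siNeg in 3 of 3 numbers, with a log2 fold change of -0.20 (limma adjusted p = 0.883, and 0.0995 with the block). It was -0.07 (-0.40 to 0.26) with siFOXM1 and -0.06 (-0.39 to 0.27) with siCENPF. A second ID with the symbol RBL1 in the authors' tables is an antisense gene over the RBL1 start (named AL136172.1 in GENCODE), shares 211 exon bases with it and was left out of the 10.

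The order of the 2 pocket protein transcripts, compared per kilobase of merged exons, differed between replicate numbers. The RBL1 level over the RBL2 level was 1.17, 0.826 and 1.15 in siCENPF+siFOXM1 libraries 1 to 3, 1.24, 0.748 and 1.37 in siFOXM1, 1.62, 0.883 and 1.67 in siCENPF, and 2.09, 0.863 and 1.68 in siNeg. In number 2 RBL2 exceeded RBL1 in all 4 groups, and in numbers 1 and 3 RBL1 exceeded RBL2 in all 4. On the authors' FPKM, by contrast, RBL1 exceeded RBL2 in every library. In number 2 it stood at 4.08 against 3.27 FPKM with siCENPF+siFOXM1 and 4.21 against 3.73 with siFOXM1. With siCENPF it was 3.71 against 2.78 and with siNeg 4.29 against 3.29. The order in number 2 therefore depends on the length used. Within each of the 3 numbers the ratio was lower in each group given the FOXM1 siRNA than in either group without it.

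Setting both siRNAs against siFOXM1 called 0 of 10 genes, against 0.00673% of all genes, in limma as in edgeR and DESeq2, with 0 of 10 at an unadjusted p under 0.05. With the block the count was also 0 of 10, against 0.296% (0.135% higher and 0.162% lower). Without overlap 0 of 10 were higher and 0 lower, against 3.22% and 3.57% of all genes. The test of whether the double knockdown differed from the sum of the single ones called 0 of 10 by limma, edgeR and DESeq2 as well, and 0% of all genes in limma (0.841% with the block, of which 0.108% higher and 0.734% lower), with 0 of 10 at an unadjusted p under 0.05. MYBL2 came nearest with the block, at log2 -0.25 (95% interval -0.43 to -0.08, limma adjusted p = 0.271).

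For 6 of the 10 genes the replicate number separated libraries more than the siRNA did. An F test of the number in limma passed for MYBL2, LIN54, RBBP4, TFDP1, RBL1 and RBL2, as it did for 46.4% of all genes, so the share is no mark of these genes. The SD of the 3 number means exceeded that of the 4 group means for the same 6 genes, for example 0.22 against 0.10 on the log2 scale for MYBL2 and 0.30 against 0.17 for RBL2. For E2F4 it was the other way round, 0.04 for numbers against 0.10 for groups. MYBL2, LIN54, TFDP1 and RBL1 were lowest in number 2 and highest in number 3 on average, by log2 0.44, 0.41, 0.24 and 0.38 between the pair, while RBL2 was highest in number 2, by 0.42 over number 3. What the numbers stand for is not given in the labels. siNeg 3 and siCENPF 3 were also the deepest libraries; the part of depth was not tested.

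**Figure D4:**
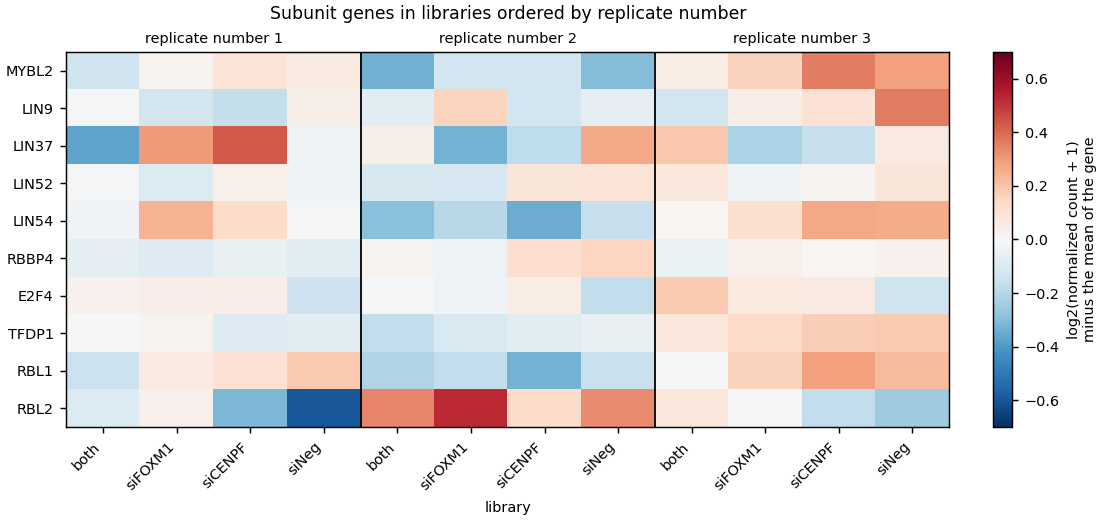
Log2(normalized count + 1) of each subunit gene minus its mean over the 12 libraries, with libraries ordered by replicate number; both stands for siCENPF+siFOXM1. MYBL2, LIN54, TFDP1 and RBL1 are low in number 2 and high in number 3, and RBL2 is high in number 2, by 0.57 over number 1.

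The genes whose pattern over the 12 libraries was most like that of MYBL2 were not other subunits. Among 11107 genes with a mean of at least 100 normalized counts, Pearson's r with MYBL2 was highest for NEDD9 (0.96), NTMT1 (0.93), FAM196B (0.93), CCDC124 (0.92) and EWSR1 (0.91). NEDD9, the first of them, had 95.8, 58.3 and 119 normalized counts in siCENPF+siFOXM1 libraries 1 to 3, 130, 89.5 and 139 in siFOXM1, 113, 92.2 and 176 in siCENPF, and 137, 57.7 and 155 in siNeg, lowest in number 2 and highest in number 3 in every group. Of the other subunits RBL1 stood at r = 0.89 (rank 20), LIN54 at 0.85 (rank 78) and TFDP1 at 0.81 (rank 200), while RBL2 stood at -0.65. These values describe 12 libraries that share groups and numbers.

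Genes that these complexes bind were read beside the subunits. Of 28 textbook CHR genes, bound by MuvB through LIN54, 3 fell with siCENPF+siFOXM1, 4 with siFOXM1 and 0 with siCENPF (0 in edgeR and DESeq2 too, with 1 at an unadjusted limma p under 0.05), and 0 rose, while 0.229%, 0.384% and 0.121% of all genes were lower past the same limma threshold. Of all genes 5.53% had an unadjusted limma p under 0.05 with siCENPF. edgeR called 2 with siCENPF+siFOXM1 and 4 with siFOXM1, and DESeq2 called 5 and 5. The 3 in limma were CCNA2, CCNB1 and NEK2, and KIF20A was the further one with siFOXM1. CCNA2, the cyclin of S and G2 phase, averaged 2469 ± 193 normalized counts with siCENPF+siFOXM1, 2381 ± 74.9 with siFOXM1 and 3690 ± 269 with siNeg (SD, n = 3 each), a log2 fold change of -0.58 and -0.63 (limma adjusted p = 0.0104 and 0.00540). The median log2 fold change of the list was -0.10 with siCENPF+siFOXM1, 0.05 with siFOXM1 and -0.11 with siCENPF. The counts rest on few libraries, since limma left 0 to 4 calls with siCENPF+siFOXM1 when 1 library was dropped (0 without siNeg 2, siNeg 3 or siCENPF+siFOXM1 1) and 1 to 4 with siFOXM1 (1 without siNeg 2, siNeg 3, siFOXM1 1 or siFOXM1 3), and on FPKM the counts were 0 and 1. With the replicate block 9 were lower and 2 higher with siCENPF+siFOXM1, 9 lower and 3 higher with siFOXM1, and 3 lower with siCENPF. The blocked shares over all genes, in this order, were 3.72%, 4.23% and 1.66% lower and 4.18%, 4.48% and 2.86% higher.

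The 26 textbook E2F-site genes, the class that DREAM reaches through E2F4 and DP1, lay below siNeg as a whole. All 26 had log2 fold changes under 0 in each comparison, with medians of -0.34 with siCENPF+siFOXM1, -0.24 with siFOXM1 and -0.25 with siCENPF, against 0.00 over all genes. The 3 comparisons share the same siNeg libraries, and most genes of the list moved together between replicate numbers. Neither the 26 signs nor the 3 comparisons are therefore independent of one another. From the group means limma and edgeR called 0 of 26 in each comparison and DESeq2 called 1 with siCENPF. At an unadjusted p under 0.05 limma named 13, 2 and 3 in the order given, against 7.36%, 7.77% and 5.53% of all genes. The count of 2 with siFOXM1 is near the share over all genes. With the replicate block 20 fell with siCENPF+siFOXM1, 15 with siFOXM1 and 15 with siCENPF, at an adjusted p under 0.05. Of all genes 3.72%, 4.23% and 1.66% were lower past that threshold. RRM2, a subunit of ribonucleotide reductase, averaged 6129 ± 723 normalized counts with siCENPF+siFOXM1, 6527 ± 643 with siFOXM1, 7076 ± 972 with siCENPF and 8382 ± 1597 with siNeg (SD, n = 3 each). Its log2 fold changes were -0.44, -0.35 and -0.24 (limma adjusted p = 1.91e-06, 4.84e-05 and 0.00614 with the block, against 0.375, 0.552 and 0.9997 without). ORC1, part of the origin recognition complex, had log2 fold changes of -0.63, -0.53 and -0.46 in the same order (limma adjusted p = 7.07e-05, 0.000432 and 0.0032 with the block, against 0.575, 0.645 and 0.992 without). When 1 library was dropped the blocked counts ran from 15 to 23 with siCENPF+siFOXM1, from 6 to 19 with siFOXM1 and from 10 to 16 with siCENPF. The lowest were without siNeg 3 with either single siRNA (6 and 10), and with siFOXM1 the count was 9, 9 and 7 without siFOXM1 1, 2 and 3.

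These genes moved with the replicate number as well. Of the 26 E2F-site genes 25 averaged higher in number 3 than in number 2 (median log2 0.33), whereas only 6 of the 28 CHR genes did (median -0.19), and 24 and 26 of them passed the F test. The summed FPKM of 3 proliferation markers (MKI67, TOP2A and PCNA) ranged from 154 to 200 with siCENPF+siFOXM1, 161 to 213 with siFOXM1, 139 to 187 with siCENPF and 157 to 211 with siNeg. MKI67 and TOP2A are also on the CHR list and PCNA on the E2F-site list, so this sum is not separate from the lists. The part of proliferation in the list results was not tested.

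**Figure D5:**
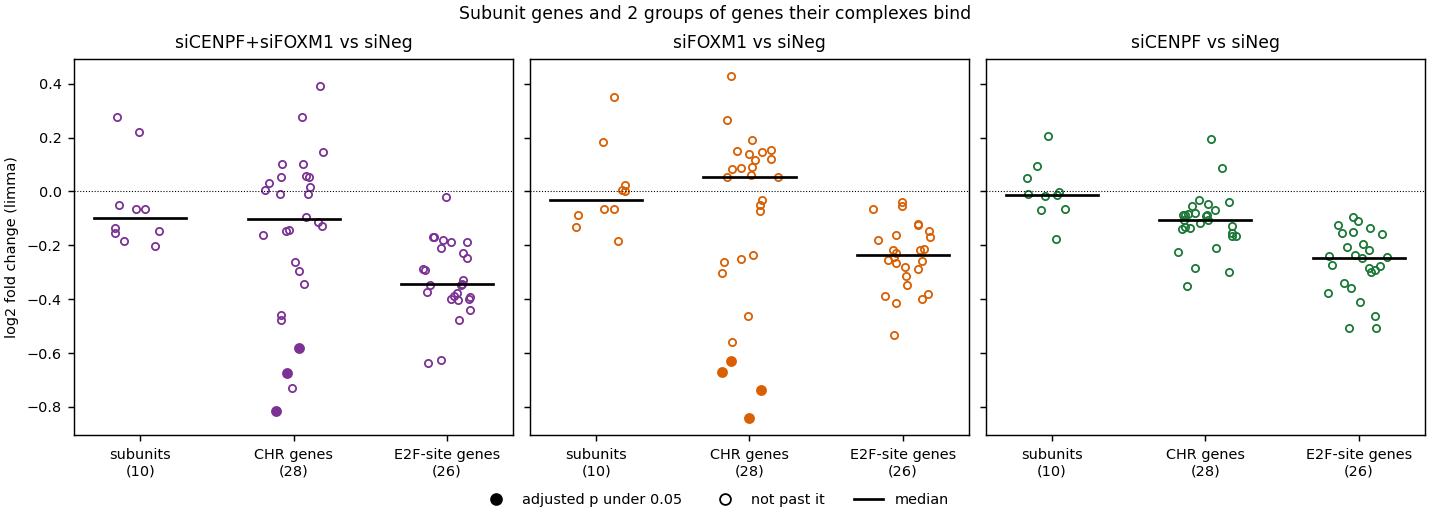
Log2 fold change against siNeg (limma, 4 group means) of the 10 subunit genes, 28 CHR genes and 26 E2F-site genes, with the median as a line and filled points past an adjusted p of 0.05. The subunit genes lie near 0 (medians -0.10, -0.03 and -0.01), all 26 E2F-site genes lie below 0, and the calls are 3 and 4 CHR genes in the groups given the FOXM1 siRNA.

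Relatives and regulators of the subunits were read in the same way. Of 10 E2F, DP and pocket relatives (E2F1 and E2F2 are also on the E2F-site list) limma called 0 in each comparison against siNeg, as edgeR and DESeq2 did, with 2, 0 and 0 at an unadjusted limma p under 0.05. Over all genes 7.36%, 7.77% and 5.53% had such a p with siCENPF+siFOXM1, siFOXM1 and siCENPF. With the block 3, 1 and 2 of the 10 were lower in that order, and 0 higher, against 3.72%, 4.23% and 1.66% of all genes lower. The genes called were E2F1, E2F2 and E2F7, and the rest of the list passed in none of the comparisons. E2F1, an activating E2F, had log2 fold changes of -0.39, -0.29 and -0.38 with siCENPF+siFOXM1, siFOXM1 and siCENPF. Its limma adjusted p was 0.000927, 0.0126 and 0.002 with the block, against 0.678, 0.800 and 0.917 without. E2F2, another activating E2F, had log2 fold changes of -0.64, -0.40 and -0.51 in the same order (limma adjusted p = 0.00366, 0.0717 and 0.0299 with the block). E2F7, an atypical repressor, had -0.32, -0.19 and -0.13 (limma adjusted p = 0.00395, 0.109 and 0.360 with the block). MYBL1, the A-Myb paralog of MYBL2, averaged 2107 ± 188 normalized counts with siCENPF+siFOXM1, 2200 ± 161 with siFOXM1, 1973 ± 41.7 with siCENPF and 2522 ± 153 with siNeg (SD, n = 3 each). Its log2 fold changes were -0.26, -0.20 and -0.35 (limma adjusted p = 0.00203, 0.0178 and 8.52e-05 with the block, against 0.401, 0.595 and 0.181 without). Of 17 measured kinases, cyclins and inhibitors that act on these complexes, 1 fell with siCENPF+siFOXM1 and 1 with siFOXM1 (CCNA2 both times), and 0 passed with siCENPF, in limma as in edgeR and DESeq2, with 1 at an unadjusted limma p under 0.05. In limma 0.229%, 0.384% and 0.121% of all genes were lower at an adjusted p under 0.05 with siCENPF+siFOXM1, siFOXM1 and siCENPF. Of MYB, MYBL1 and FOXM1, limma called the siRNA target FOXM1 from the group means with siCENPF+siFOXM1 and with siFOXM1, and 0 of 3 with siCENPF (1 at an unadjusted p under 0.05), where edgeR called 0 and DESeq2 called 1 (MYBL1). With the block 5, 6 and 2 of the 17 were lower with siCENPF+siFOXM1, siFOXM1 and siCENPF, and 0 higher. The blocked shares over all genes were 3.72%, 4.23% and 1.66% lower, and 4.18%, 4.48% and 2.86% higher, in that order. CDK6, a kinase that acts with D-type cyclins on pocket proteins, had log2 fold changes of -0.33, 0.25 and -0.54 in that order (limma adjusted p = 0.0204, 0.0810 and 0.000468 with the block). DYRK1A, the kinase that phosphorylates LIN52, had log2 fold changes of -0.19, -0.25 and -0.03 in siCENPF+siFOXM1, siFOXM1 and siCENPF (limma adjusted p = 0.150, 0.0465 and 0.893 with the block).

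In the authors' deposited table the smallest p-value of the 10 genes over the 3 comparisons against siNeg was 0.121, for E2F4 with siCENPF+siFOXM1. The lowest of their 30 adjusted p-values in the authors' deposited table was 0.9993.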

How the data were processed

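PolyA RNA-seq libraries of 4 siRNA groups (3 each) were read from tables the authors deposited. Reads were trimmed and aligned to hg38 and tested with Trimmomatic, TopHat and edgeR, per the submitters' processing notes, whose versions and settings the labels do not give. The authors deposited normalized counts per gene (a signal scaled to a common library size), CPM, FPKM, and tables of comparisons holding a score (likelihood ratio), p-values and log2 fold changes, per the file headers. CPM and FPKM values gave whole reads at every gene checked (within 0.01 of a read), 13671250 to 35411230 per library.

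Log2(normalized count + 1), for genes with at least 10 in 3 or more libraries, was fitted in limma 3.58.1 (R 4.3.3; trend, robust) with 4 group means; adjusted p is Benjamini-Hochberg over 14857 genes, threshold 0.05. Fold changes on this scale understate those of low genes. The replicate number was a block in an alternative. Same-number libraries deviated together (r 0.272 to 0.639 over all 18 pairs, against -0.51 to 0.0248 over 36 pairs of different number); this pairing comes from the data, since the labels give only the numbers. Further alternatives were a pseudocount of 5, no filter, equal medians, FPKM (+ 0.5), edgeR 4.0.16 quasi-likelihood (TMM or RLE) and DESeq2 1.42.0 on recovered reads, only the 2 groups compared, and each library left out. Leaving libraries out under the block was added after seeing the data. The fits were tested on simulated data that held no effect of the replicate number, so that test does not bear on the choice of the block. The members and the gene lists (CHR genes, E2F-site genes, relatives, MYB family and FOXM1, regulators, markers) were chosen with earlier results of these data known. List genes named are among the 4 of smallest adjusted p per list and comparison, and genes like MYBL2 are the 5 of highest Pearson's r.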

Additional observations from a re-analysis of the deposited data

Results flagged for a closer look

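MYBL2 was singled out because the CENPF siRNA went with opposite differences in the absence and presence of the FOXM1 siRNA in every replicate number. siCENPF lay above siNeg by log2 0.04, 0.17 and 0.07 in numbers 1 to 3, whereas siCENPF+siFOXM1 lay below siFOXM1 by log2 -0.17, -0.20 and -0.11. Of all genes 3.44% showed such opposite signs in 3 of 3 numbers. The difference between these effects was log2 -0.25 (95% interval -0.74 to 0.24, limma adjusted p = 1.00), and the limma adjusted p was 0.271 with the replicate block.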

How the results depend on the processing

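The 0 calls among the subunit genes held in every comparison under a pseudocount of 5, no filter, equal medians, FPKM (without LIN37, which its filter removed), edgeR, DESeq2, the 2 groups alone and each left-out library. With the replicate block, in limma and in edgeR alike, 2 were called with siCENPF+siFOXM1 against siNeg, 1 with siFOXM1 against siNeg and 1 with siCENPF+siFOXM1 against siCENPF, and with a library also left out these counts ran from 0 to 3, 0 to 2 and 0 to 1. The block changed no other call of a subunit gene, and no fold change of one that passed turned its direction. The F test of replicate number passed for 6 subunit genes under each alternative run.

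Over all genes, limma called 68, 98, 50, 1 and 12 genes (siCENPF+siFOXM1, siFOXM1 and siCENPF against siNeg, then siCENPF+siFOXM1 against siFOXM1 and against siCENPF) and 0 in the test of the difference from the sum. In the same order the block gave 1174, 1295, 671, 44, 217 and 125, edgeR with the block 1249, 1322, 702, 42, 231 and 118, and DESeq2 165, 249, 138, 4, 33 and 22. With only the 2 groups compared 35, 41, 6, 1 and 3 were called; the last test needs 4 groups. Without 1 library the counts against siNeg ran from 30 to 80, 34 to 112 and 21 to 48, and from 2 to 12 against siCENPF. The lower counts that moved by over 1.5 times reached up to 43, 55, 29 and 6. The cause was not tested.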
